A study of Mus musculus with 8 samples.

Results

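The genes described here are 9 genes of blood vessel growth measured in mouse heart. They were taken by name from the deposited expression table, where all 9 were found among 11704 listed genes, and all 9 averaged 1 FPKM or more, as did the 10025 genes that were tested. Of them, 7 encode secreted ligands, namely Vegfa, Vegfb, Vegfc, Angpt1, Pdgfa, Pdgfb and Apln. The remaining 2, Hif1a and Epas1, encode the alpha subunits of hypoxia-inducible factors (HIF), which are transcription factors and no ligands. RNA was sequenced from 4 hearts given AAV-FGF17 and 4 hearts given the control vector. AAV-FGF17 is an adeno-associated virus of serotype 9 that carries mouse Fgf17, a secreted fibroblast growth factor. Both vectors were injected under the skin of newborn mice, and hearts were taken at 8 to 10 weeks of age. The labels give no strain, sex, dose or promoter of the vector. The column names call all 8 hearts sham and the series title speaks of sham operation and infarction, whereas the sample labels name transduction only, so it is unknown whether the animals were operated on. The question was how the adult heart's transcripts differ when Fgf17 is supplied by the vector.

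Endothelial cells of the heart line a capillary bed that runs beside every muscle fibre, and muscle, endothelial and mural cells exchange growth factors across that short distance. VEGF ligands act through the receptors Flt1, Kdr and Flt4 on endothelium, angiopoietin 1 through Tek, PDGF ligands through Pdgfra and Pdgfrb on fibroblasts and mural cells, and apelin through Aplnr. Both HIF alpha proteins are controlled mainly by oxygen-dependent hydroxylation and degradation of the protein, so that their transcript level is not a readout of their activity. Vegfa is the textbook HIF target among the ligands.

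Values are FPKM, fragments per kilobase of transcript scaled to the mapped total of the library, so that levels of different genes can be set beside each other. Sequencing depth is unknown, so precision was read from the spread among hearts. Fgf17 averaged 114 ± 45.3 FPKM in AAV-FGF17 hearts and 5.36 ± 5.05 FPKM in control hearts (SD, n = 4 each), and the groups did not overlap. Control libraries 2 and 3 stood apart. Fgf17 was 1.43 and 0.560 FPKM in these, against 9.59 and 9.86 FPKM in control libraries 1 and 4, so every value without control libraries 2 and 3 rests on the controls with more Fgf17 signal. Mitochondrially encoded genes took 62.8% to 66.9% of all FPKM in the AAV-FGF17 group, against 64.0% and 64.1% in control libraries 1 and 4 and 44.5% and 30.9% in control libraries 2 and 3. Control libraries 1 and 4 were the most alike of all 28 pairs, with a median absolute log2 difference of 0.0973 over tested genes. The other pairs ran from 0.111 to 0.409. Next came AAV-FGF17 library 3 with control libraries 4 and 1, at 0.111 and 0.116. From control libraries 2 and 3, control library 1 differed by 0.264 and 0.356, and control library 4 by 0.2575 and 0.352. The labels do not say whether control libraries 1 and 4 are separate animals, and each counts as 1 of n = 4. Over all tested genes the median log2 change, AAV-FGF17 over control, was -0.12 as fitted. Changes below are therefore given relative to that median gene unless they are called as fitted, and each is also given without control libraries 2 and 3. The limma p-values printed beside them test the change as fitted and not the relative change. The heart muscle markers Myh6 and Mb averaged 2718 ± 292 and 3988 ± 301 FPKM in AAV-FGF17 hearts, and 4323 ± 2193 and 5279 ± 1755 FPKM in control hearts. In control libraries 1 and 4 alone they averaged 2764 and 3761 FPKM. In whole hearts, fewer cells of a type and less RNA per cell cannot be told apart.

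No member passed the test between the groups. With limma on log2(FPKM + 1) and Benjamini-Hochberg adjustment over all 10025 genes, 0 of the 9 had an adjusted p under 0.05, as had 0% of all tested genes in either direction. Fgf17, the gene carried by the vector, did not pass over the 8 libraries either (limma adjusted p = 0.248). A member that did not pass is therefore not shown to be unchanged. At an unadjusted limma p under 0.05 there were 2 members, Pdgfa and Apln, both lower in AAV-FGF17 hearts, against 7.98% of all tested genes lower. On the higher side there were 0 members, against 1.36% of all tested genes. The split over all genes, 136 higher and 800 lower, depended on scaling: after median-of-ratios scaling it was 462 higher and 387 lower, and Vegfc, on the higher side, joined Pdgfa and Apln. The limma adjusted p of Vegfc was then 0.563. The 4 AAV-FGF17 hearts lay below all 4 controls in 1 member, Pdgfa, against 4.64% of tested genes. They lay above all controls in 0 members, against 0.998%. Relative to the median gene 5 members were higher and 4 lower, their median being 0.05, and over all tested genes the median is 0 by construction.

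**Figure D1:**
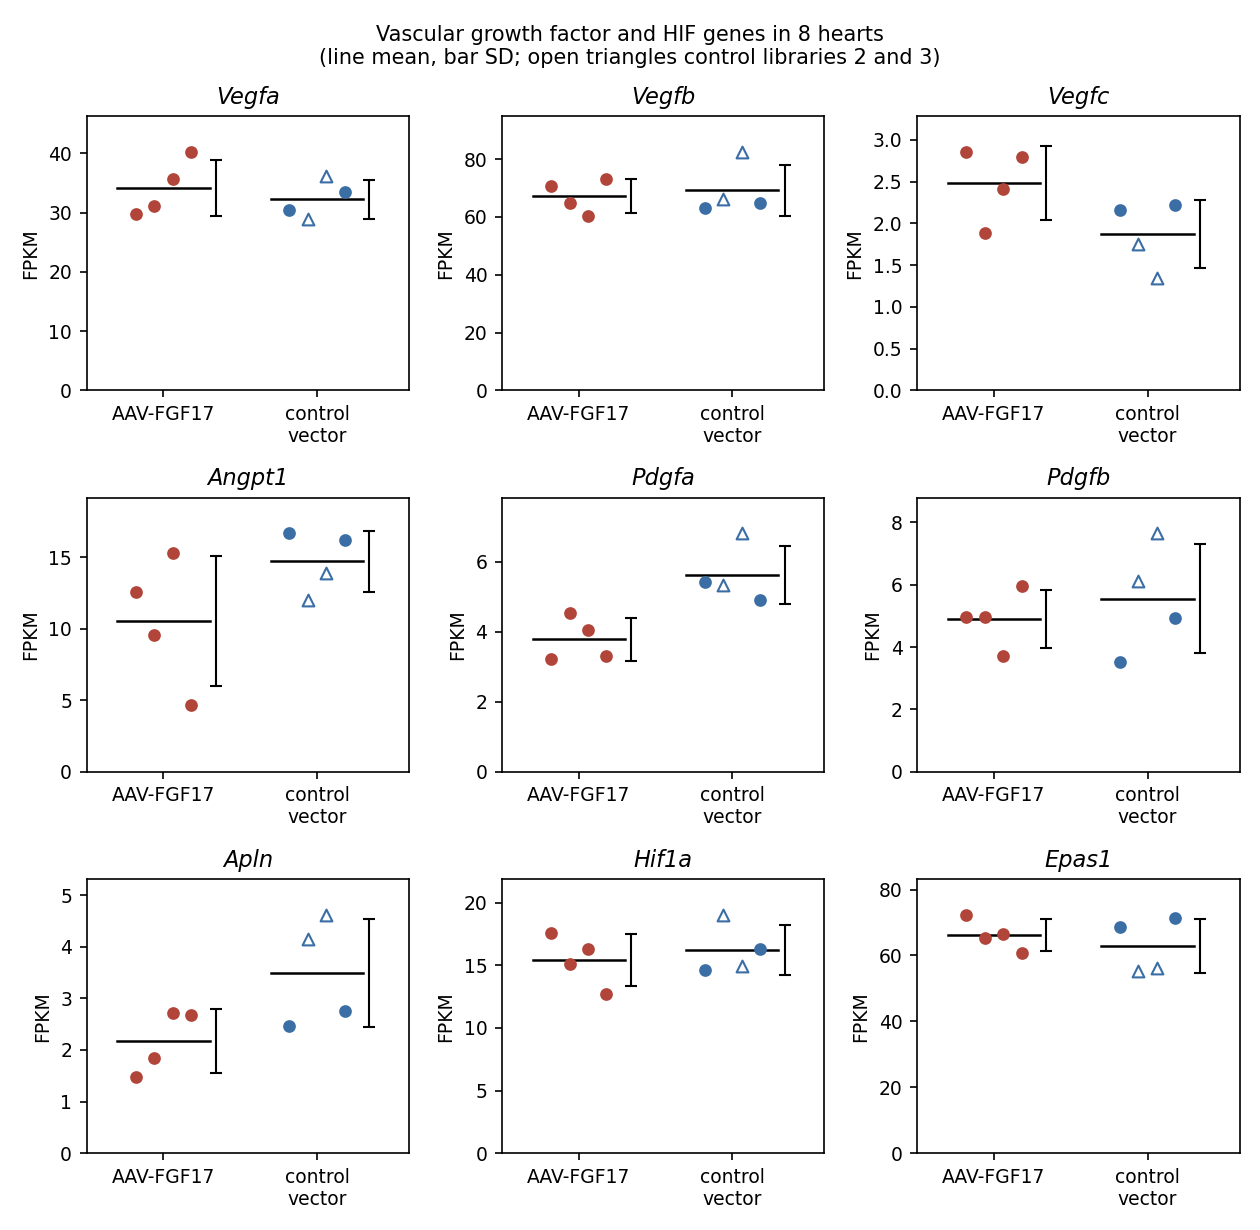
FPKM of each of the 9 genes (y axis, from 0) in AAV-FGF17 and control vector hearts (x axis), with 1 point per heart, a line at the mean and a bar of 1 SD (n = 4 each); open triangles are control libraries 2 and 3. Pdgfa is the only panel in which the groups do not overlap, and the lowest Angpt1 value, 4.66 FPKM, is that of AAV-FGF17 library 4.

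The levels of the 9 genes spanned a wide range. Vegfb and Epas1 were highest, with means over the 8 hearts of 68.2 and 64.5 FPKM, and lay above 96.1% and 95.8% of tested genes. Their order was not fixed: Vegfb exceeded Epas1 in 3 of 8 libraries. Vegfa followed at 33.2 FPKM and Hif1a at 15.8 FPKM, and both steps held in 8 of 8 libraries without overlap of the ranges. Angpt1 averaged 12.6 FPKM, and its range overlapped that of Hif1a above and of Pdgfb below. Pdgfb at 5.23 and Pdgfa at 4.70 FPKM stood in that order in 6 of 8 libraries. Apln at 2.83 and Vegfc at 2.18 FPKM were lowest, and their order held in 5 of 8 libraries, while Pdgfa exceeded Apln in 8 of 8.

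On GRCm38 the deposited table places Vegfa (ENSMUSG00000023951.17) at chr17:46016993-46032369 on the minus strand, Vegfb (ENSMUSG00000024962.13) at chr19:6982473-6987651 on the minus strand, Vegfc (ENSMUSG00000031520.6) at chr8:54077606-54187096 on the plus strand. It places Angpt1 (ENSMUSG00000022309.9) at chr15:42424723-42676977 on the minus strand, Pdgfa (ENSMUSG00000025856.15) at chr5:138976014-138997370 on the minus strand, Pdgfb (ENSMUSG00000000489.6) at chr15:79995900-80014808 on the minus strand, and Apln (ENSMUSG00000037010.7) at chrX:48025146-48034853 on the minus strand, Hif1a (ENSMUSG00000021109.13) at chr12:73901375-73947530 on the plus strand, Epas1 (ENSMUSG00000024140.9) at chr17:86753907-86833410 on the plus strand. These are whole genes, exons and introns included.

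Sequences before annotated starts of 4 genes are shown. Vegfa was taken as the best known HIF target of the ligands and Vegfb as its most abundant relative here. Apln was taken as a second hypoxia-inducible ligand and Pdgfa as the gene whose groups did not overlap. Of these sequences, that of Pdgfa lies inside the gene as placed above, before a start within it, and stops short of that start. They are RefSeq promoter windows on GRCm38.p6, all of minus-strand genes, read 5′ to 3′ on the gene's strand and cut before the first exon of any coding gene in GENCODE M21. Capitals mark the HIF-binding core motifs ACGTG and GCGTG, which read CACGT and CACGC where they lie on the other strand.
Vegfa, chr17:46032378-46032627: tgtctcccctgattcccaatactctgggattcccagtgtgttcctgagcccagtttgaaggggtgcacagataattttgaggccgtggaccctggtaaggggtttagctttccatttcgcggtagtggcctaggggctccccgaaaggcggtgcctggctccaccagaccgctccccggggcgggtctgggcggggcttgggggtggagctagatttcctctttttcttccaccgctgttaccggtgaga
Vegfb, chr19:6987652-6987901: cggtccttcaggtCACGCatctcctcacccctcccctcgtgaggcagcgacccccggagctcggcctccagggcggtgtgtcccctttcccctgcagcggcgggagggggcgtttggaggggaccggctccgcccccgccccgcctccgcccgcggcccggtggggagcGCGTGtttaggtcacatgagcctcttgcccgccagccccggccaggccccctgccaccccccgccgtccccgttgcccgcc
Apln, chrX:48034854-48035103: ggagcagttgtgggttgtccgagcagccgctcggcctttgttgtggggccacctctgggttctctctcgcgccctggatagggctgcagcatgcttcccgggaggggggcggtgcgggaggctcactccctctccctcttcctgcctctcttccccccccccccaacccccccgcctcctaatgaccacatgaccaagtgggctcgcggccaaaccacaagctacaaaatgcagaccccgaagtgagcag
Pdgfa, chr5:138995038-138995194: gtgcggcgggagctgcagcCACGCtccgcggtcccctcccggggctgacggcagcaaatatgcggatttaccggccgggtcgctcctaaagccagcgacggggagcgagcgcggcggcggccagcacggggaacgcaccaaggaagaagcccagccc

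Of the 9 genes, 6 had a RefSeq promoter window, some with more than 1 annotated start, and Angpt1, Pdgfb and Epas1 had no entry. In the 250 bases before the start, a core motif occurred in 38.6% of all 32817 windows, ACGTG in 16.6% and GCGTG in 28.1%, with both strands searched and a CACGTG palindrome matching on each. Vegfb held 2 matches, and Vegfa at the start shown, Vegfc and Apln held 0. Vegfa held 2 before a downstream start, in a window of which 218 of the 250 bases lie in exons of Vegfa itself. Pdgfa held 1 before the start shown and 0 before its other start. Hif1a held 3 matches, of which 2 overlap in 1 palindrome. A match is a string of letters and not a bound site. Sequence outside these 250 bases was not searched, so 0 matches do not show that a gene lacks the motif.

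Vegfa, the main VEGF ligand of the capillary bed, measured 29.8, 31.1, 35.7 and 40.2 FPKM in AAV-FGF17 hearts and 30.4, 28.9, 36.2 and 33.5 FPKM in control hearts. AAV-FGF17 library 4 lay above all controls and the groups otherwise overlapped, with means of 34.2 ± 4.76 and 32.3 ± 3.26 FPKM (SD, n = 4 each; two-sided exact permutation p = 0.486). The log2 change relative to the median gene was 0.20 ± 0.13 (SE; limma adjusted p = 0.776), or 0.11 without control libraries 2 and 3. The 95% interval of the change as fitted ran from -0.21 to 0.36. In GENCODE M21, 13 transcripts are annotated for Vegfa, and its splice forms, which differ in how tightly the protein binds heparan sulphate, were summed into 1 value per gene.

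Vegfb, a ligand of Flt1 that is abundant in heart muscle, measured 70.7, 64.8, 60.4 and 73.1 FPKM in AAV-FGF17 hearts and 63.2, 66.2, 82.5 and 65.0 FPKM in control hearts. The highest value was that of control library 3, and the other 7 lay between 60.4 and 73.1 FPKM. Means were 67.2 ± 5.77 and 69.2 ± 8.94 FPKM (exact permutation p = 0.743, n = 4 each), and the log2 change relative to the median gene was 0.08 ± 0.12 (SE; limma adjusted p = 0.892), or 0.09 without control libraries 2 and 3. Among the 9 genes Vegfb and Epas1 varied least within groups: their residual SD on the log2 scale, 0.15 each, lay at percentiles 24.3 and 24.4 of tested genes.

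Vegfc, the lymphatic ligand of Flt4, measured 2.85, 1.88, 2.42 and 2.79 FPKM in AAV-FGF17 hearts and 2.16, 1.75, 1.35 and 2.22 FPKM in control hearts. Of the 4 AAV-FGF17 hearts 3 lay above all controls, and the lowest controls were libraries 2 and 3. Means were 2.48 ± 0.445 and 1.87 ± 0.404 FPKM (exact permutation p = 0.114, n = 4 each). The log2 change relative to the median gene, 0.40 ± 0.14 (SE; limma adjusted p = 0.496), was the highest of the 9, but it was 0.14 without control libraries 2 and 3. As fitted, the change of Vegfc was 0.28, and the p-value tests that change. Its receptor Flt4 averaged 1.48 ± 0.250 FPKM in AAV-FGF17 hearts and 1.92 ± 0.313 FPKM in control hearts.

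As parts of the summed FPKM of the 3 VEGF genes within a library, a measure that does not depend on the library's scaling, Vegfb made up 64.7% ± 3.22 in AAV-FGF17 hearts and 66.9% ± 1.97 in control hearts (SD, n = 4 each). Vegfa made up 32.9% ± 3.27 and 31.3% ± 1.57, and Vegfc 2.39% ± 0.344 and 1.85% ± 0.523. All 3 shares overlapped between the groups. The ratio of Vegfa to Vegfb ran from 0.421 to 0.591 in AAV-FGF17 hearts and from 0.437 to 0.515 in control hearts.

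Angpt1, which stabilises endothelium through the receptor Tek, varied most among the hearts. It measured 12.6, 9.57, 15.3 and 4.66 FPKM in AAV-FGF17 hearts and 16.7, 12.05, 13.9 and 16.2 FPKM in control hearts. AAV-FGF17 library 4 was the lowest of all 8, and 2 of 4 AAV-FGF17 hearts lay below all controls. Means were 10.5 ± 4.55 and 14.7 ± 2.15 FPKM (exact permutation p = 0.143, n = 4 each). The log2 change relative to the median gene was -0.42 ± 0.29 (SE; limma adjusted p = 0.496), and -0.12 without AAV-FGF17 library 4. Without control libraries 2 and 3 it was -0.68 and the groups did not overlap, as in 9.39% of tested genes on the lower side and 6.33% on the higher side there. The residual SD of Angpt1, 0.49 on the log2 scale, exceeded that of 94.1% of tested genes.

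Library 4 of the AAV-FGF17 group also differed in its balance of long and short transcripts. The median of the longest 20% of tested genes minus that of the shortest 20%, by exonic length, stood at -0.19 on the relative log2 scale in that library and at 0.03 to 0.09 in the other AAV-FGF17 libraries. In the controls it was 0.11 in libraries 1 and 4, -0.05 in library 2 and -0.20 in library 3, where Angpt1 stood at 13.9 FPKM. Angpt1, with 5205 exonic bases, lay at the 60.4th percentile of length. The part of this difference in the value of Angpt1 was not tested. Of the genes whose profile over the 8 libraries was nearest to that of Angpt1, Lims1 stood closest, with a root mean square difference of 0.11 on the relative log2 scale, followed by Fn1 at 0.17 and Mlxip at 0.17, where the median gene stood at 0.53. These genes were picked as the nearest of all tested genes, so small differences follow from the search itself. Fn1 encodes fibronectin and Lims1 an adaptor of integrin adhesions. Lims1 averaged 12.4 ± 5.70 FPKM in AAV-FGF17 hearts and 15.9 ± 2.28 FPKM in control hearts.

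Pdgfa, a ligand of Pdgfra, was the member whose groups did not overlap. It measured 3.23, 4.54, 4.04 and 3.31 FPKM in AAV-FGF17 hearts and 5.43, 5.35, 6.81 and 4.91 FPKM in control hearts. The highest AAV-FGF17 heart lay under the lowest control by a small margin. Means were 3.78 ± 0.621 and 5.62 ± 0.821 FPKM, so that AAV-FGF17 hearts stood at 67.2% of the control mean (two-sided exact permutation p = 0.0286, n = 4 each). This is the smallest p that 4 against 4 can give, and it is unadjusted for the 9 genes compared. The log2 change as fitted was -0.47 ± 0.14 (SE), with a 95% interval from -0.78 to -0.17. With limma the adjusted p was 0.495, so the difference did not pass the test. Relative to the median gene the change was -0.35, and without control libraries 2 and 3 it was -0.36.

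Of the alternative settings, only the 2 rescalings of the libraries could make the groups of Pdgfa overlap, and both did. After median-of-ratios scaling, where 2.43% of genes lay lower and 2.87% higher without overlap, the log2 change of Pdgfa was -0.34, with an adjusted p from limma of 0.563. Relative to its mean and to the median gene of each library, Pdgfa stood at 0.12 in AAV-FGF17 library 2, above control libraries 2 and 4 at 0.06 and 0.10 on the log2 scale. An antisense transcript, 6330403L08Rik, overlaps Pdgfa on the opposite strand. The strandedness of the counting is not given in the sources used here, so reads of both cannot be told apart. Its receptor Pdgfra, also a fibroblast marker, averaged 6.06 ± 0.928 FPKM in AAV-FGF17 hearts and 5.52 ± 0.827 FPKM in control hearts (exact permutation p = 0.371, n = 4 each).

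Pdgfb, the endothelial ligand that recruits pericytes through Pdgfrb, measured 4.97, 4.96, 3.72 and 5.97 FPKM in AAV-FGF17 hearts and 3.51, 6.13, 7.64 and 4.93 FPKM in control hearts. Control libraries 2 and 3 were the highest, and control library 1 the lowest of all 8. Means were 4.91 ± 0.923 and 5.55 ± 1.76 FPKM (exact permutation p = 0.600, n = 4 each), and the log2 change relative to the median gene was -0.0053 ± 0.20 (SE; limma adjusted p = 0.776). Without control libraries 2 and 3 it turned to 0.20. An antisense gene, Gm41361, overlaps Pdgfb as well.

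The receptor Pdgfrb measured lower in AAV-FGF17 hearts without passing the test. It stood at 4.06, 3.94, 5.41 and 3.77 FPKM in AAV-FGF17 hearts, against 8.29, 13.3, 7.41 and 4.95 FPKM in control hearts. AAV-FGF17 library 3 lay above control library 4, and the other 3 AAV-FGF17 hearts lay below all controls. Means were 4.29 ± 0.754 and 8.48 ± 3.48 FPKM (exact permutation p = 0.0571, n = 4 each), with a log2 change relative to the median gene of -0.66 ± 0.24 (SE; limma adjusted p = 0.495), or -0.48 without control libraries 2 and 3. The ratio of Pdgfb to Pdgfrb within a library averaged 1.19 ± 0.372 in AAV-FGF17 hearts and 0.728 ± 0.330 in control hearts, and its ranges overlapped. Summed over 8 pericyte markers, which include Pdgfrb, the level ran from 199.6 to 226 FPKM in AAV-FGF17 hearts and from 198.2 to 226.5 FPKM in control hearts, with 0 markers at 0. Of the 8, 5 lay above and 3 below the median gene. At an unadjusted limma p under 0.05 there were 2 lower and 0 higher, against 7.98% and 1.36% of tested genes. Rgs5 gave most of the sum, which therefore says little of the other markers. It averaged 150.2 ± 12.9 FPKM in AAV-FGF17 hearts and 137 ± 8.89 FPKM in control hearts.

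Apln, the peptide apelin of endothelial tip cells, measured 1.48, 1.85, 2.71 and 2.67 FPKM in AAV-FGF17 hearts and 2.46, 4.15, 4.62 and 2.75 FPKM in control hearts. Control libraries 2 and 3 were the highest, while control libraries 1 and 4 lay within or just above the AAV-FGF17 range. Means were 2.18 ± 0.613 and 3.49 ± 1.05 FPKM (exact permutation p = 0.114, n = 4 each), and the log2 change relative to the median gene was -0.37 ± 0.20 (SE; limma adjusted p = 0.495). Without control libraries 2 and 3 it was -0.18. Its receptor Aplnr averaged 4.06 ± 1.90 FPKM in AAV-FGF17 hearts and 5.41 ± 1.57 FPKM in control hearts, and the ratio of Apln to Aplnr overlapped between the groups, at 0.583 ± 0.198 and 0.656 ± 0.156.

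Hif1a, the more widely expressed HIF alpha subunit, measured 17.6, 15.1, 16.3 and 12.7 FPKM in AAV-FGF17 hearts and 14.6, 19.0, 14.98 and 16.3 FPKM in control hearts. The groups overlapped, with means of 15.4 ± 2.09 and 16.2 ± 2.001 FPKM (exact permutation p = 0.657, n = 4 each). The log2 change relative to the median gene was 0.05 ± 0.13 (SE; limma adjusted p = 0.799), or 0.01 without control libraries 2 and 3. The genes Gm15283, antisense, and Gm49321, on the same strand, overlap Hif1a.

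Epas1, the HIF-2 alpha subunit typical of endothelium, measured 72.3, 65.2, 66.4 and 60.7 FPKM in AAV-FGF17 hearts and 68.6, 55.3, 56.3 and 71.4 FPKM in control hearts. The lowest values were those of control libraries 2 and 3, and the other 6 hearts lay between 60.7 and 72.3 FPKM. Means were 66.1 ± 4.804 and 62.9 ± 8.29 FPKM (exact permutation p = 0.514, n = 4 each). The log2 change relative to the median gene was 0.20 ± 0.12 (SE; limma adjusted p = 0.761), and it turned to -0.06 without control libraries 2 and 3. Within libraries Hif1a stood at 0.232 ± 0.0168 of Epas1 in AAV-FGF17 hearts and at 0.263 ± 0.0586 in control hearts, where library 2 was highest at 0.344.

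**Figure D2:**
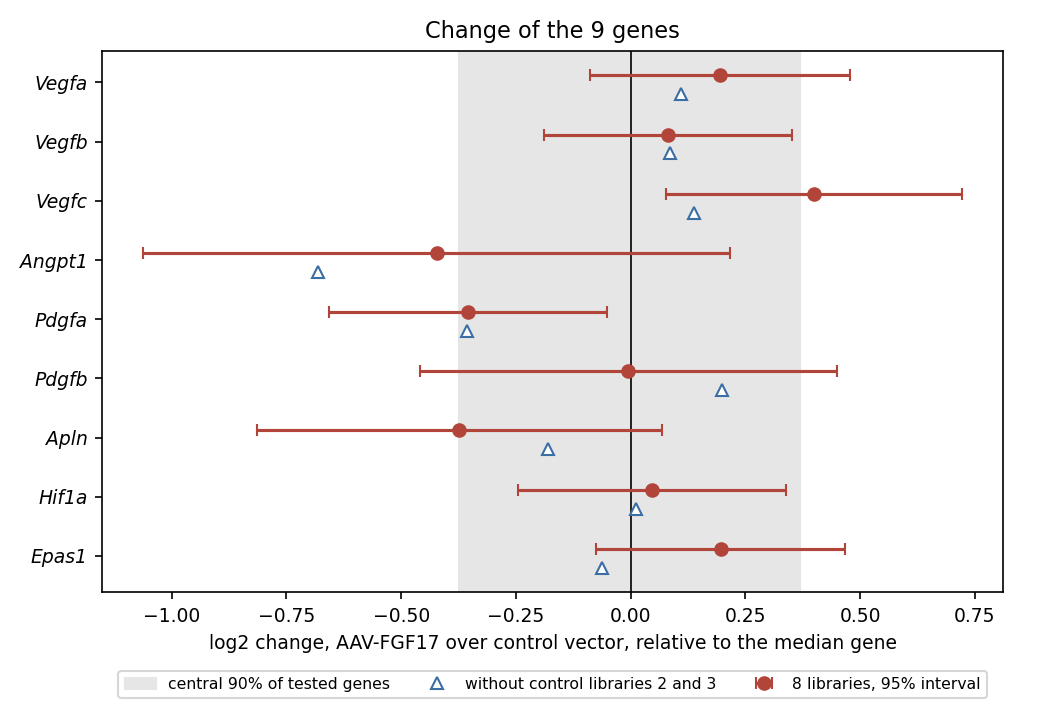
Log2 change of each of the 9 genes (y axis), AAV-FGF17 over control vector and relative to the median gene (x axis). Bars are the 95% intervals of the limma fit over 8 libraries, with the median change of -0.12 taken off as from the points. That median was treated as fixed, so whether a bar spans 0 is not the limma test. As fitted, the interval of Vegfc ran from -0.04 to 0.60 and that of Apln from -0.93 to -0.05. Open triangles are values without control libraries 2 and 3, and grey spans the central 90% of tested genes. Pdgfa stays at -0.35 over 8 libraries and -0.36 without control libraries 2 and 3. Vegfc moves from 0.40 to 0.14 and Apln from -0.37 to -0.18.

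**Figure D3:**
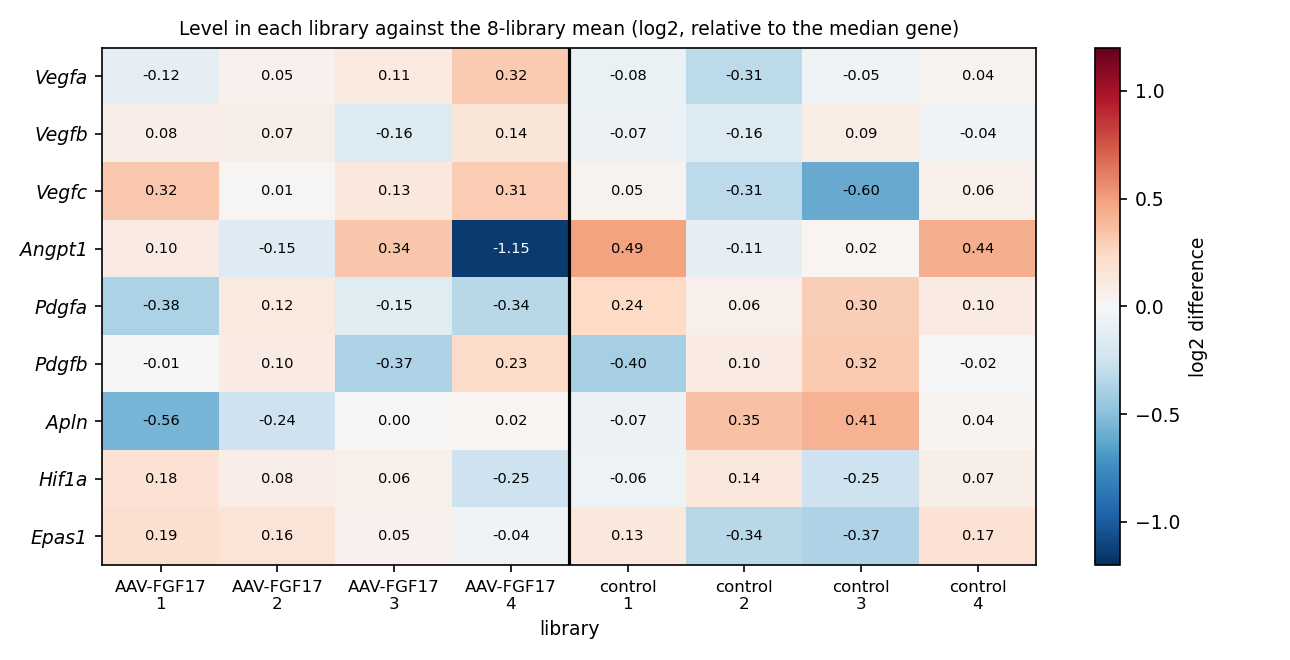
Level of each of the 9 genes (rows) in each library (columns) against its mean over the 8 libraries, in log2 units relative to the library's median gene. The values farthest from 0 are -1.15 for Angpt1 in AAV-FGF17 library 4 and -0.60 for Vegfc in control library 3.

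For Apln and Vegfc, the members with the widest ranges over the libraries after Angpt1, the nearest profiles were close in size. Suox, a sulphite oxidase, followed Apln with a root mean square difference of 0.08 on the relative log2 scale, then Renbp at 0.10 and Ralb at 0.11, against 0.34 for the median gene. Smc4, a condensin subunit, followed Vegfc at 0.06, then Rfc4 and Tram1 at 0.07 each, also against 0.34. Each comparison is over 8 libraries, in which control libraries 2 and 3 gave much of the range. The genes named were the nearest of all tested genes, so small differences follow from the search itself.

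**Figure D4:**
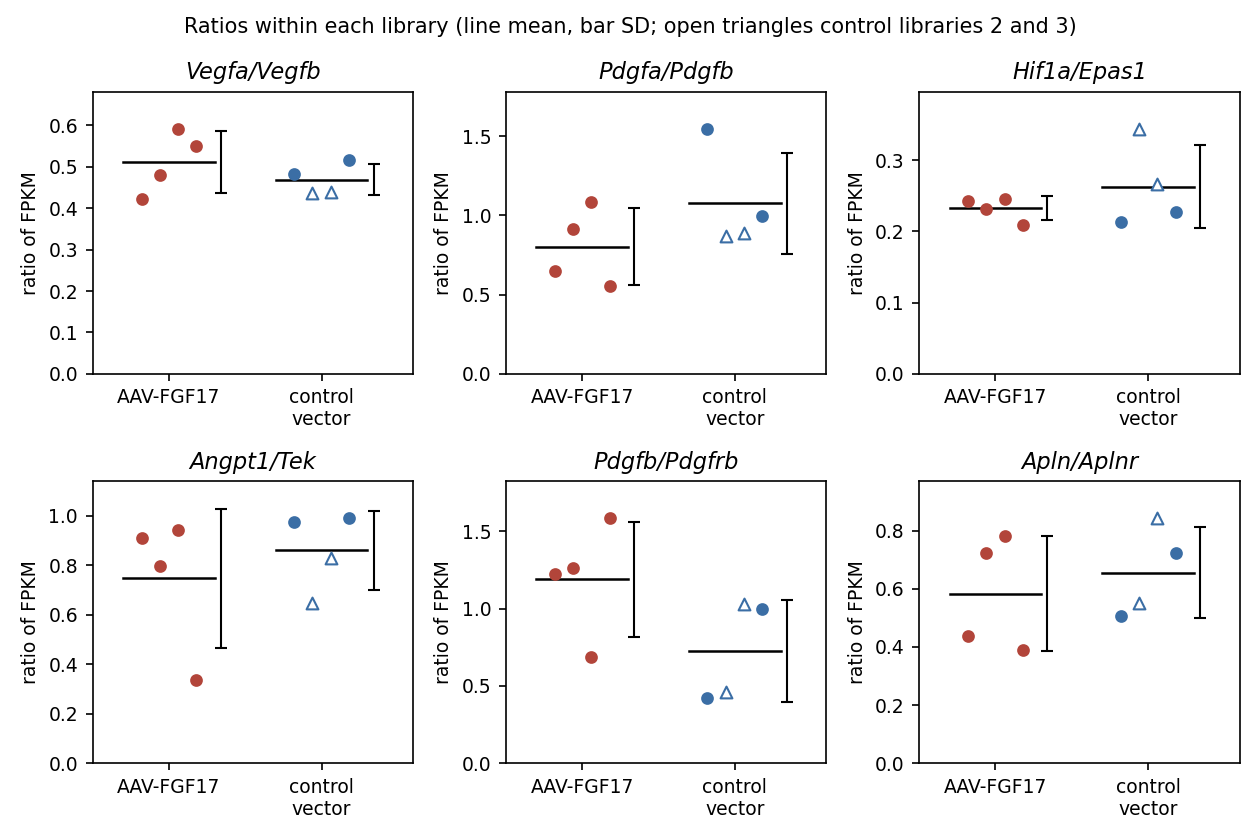
Ratios of FPKM within each library (y axis, from 0) in AAV-FGF17 and control vector hearts (x axis), with 1 point per heart, a line at the mean and a bar of 1 SD (n = 4 each); open triangles are control libraries 2 and 3. All 6 ratios overlap between the groups, and the lowest ratio of Angpt1 to Tek, 0.336, is that of AAV-FGF17 library 4.

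Among the 10 receptors and co-receptors of these ligands, 3 stood higher than the median gene and 7 lower. Their median change was -0.14, and -0.07 without control libraries 2 and 3, against 0 over all tested genes. None had a limma adjusted p under 0.05, and at an unadjusted p under 0.05 there were 3, namely Pdgfrb, Tek and Nrp2, all lower, against 7.98% of tested genes lower and 1.36% higher. After median-of-ratios scaling the unadjusted p stayed under 0.05 in Pdgfrb of these 3. Flt1, the decoy receptor of Vegfa and receptor of Vegfb, averaged 15.2 ± 1.11 FPKM in AAV-FGF17 hearts and 15.1 ± 0.394 FPKM in control hearts. Kdr, the main signalling receptor of Vegfa, averaged 20.4 ± 4.07 and 21.3 ± 2.57 FPKM. The ratio of Vegfa to Kdr within a library was 1.69 ± 0.140 in AAV-FGF17 hearts and 1.54 ± 0.259 in control hearts.

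Tek, the angiopoietin receptor, was the receptor whose groups did not overlap, where 4.64% of tested genes were lower without overlap. It measured 13.8, 12.04, 16.2 and 13.9 FPKM in AAV-FGF17 hearts, against 17.1, 18.6, 16.8 and 16.4 FPKM in control hearts. The nearest hearts, AAV-FGF17 library 3 and control library 4, differed little. Means were 14.0 ± 1.70 and 17.2 ± 0.954 FPKM (exact permutation p = 0.0286, n = 4 each), with a log2 change relative to the median gene of -0.17 ± 0.11 (SE; limma adjusted p = 0.495), or -0.23 without control libraries 2 and 3. After median-of-ratios scaling the groups of Tek overlapped. Tie1, its orphan partner, averaged 8.96 ± 1.503 FPKM in AAV-FGF17 hearts and 13.8 ± 5.34 FPKM in control hearts, where libraries 2 and 3 stood at 18.4 FPKM on average and libraries 1 and 4 at 9.16 FPKM. The neuropilins Nrp1 and Nrp2, co-receptors of VEGF, averaged 10.9 ± 1.95 and 3.51 ± 0.961 FPKM in AAV-FGF17 hearts and 12.7 ± 2.20 and 5.19 ± 1.21 FPKM in control hearts.

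Tek is also an endothelial marker, and 0 of 10 endothelial markers had a limma adjusted p under 0.05. Summed over 10 markers, the level ran from 126 to 163 FPKM in AAV-FGF17 hearts and from 166 to 218 FPKM in control hearts, with no overlap and 0 markers at 0. Of the 10, 7 lay below the median gene and 3 above it, and 4 were lower without overlap, against 4.64% of tested genes. After median-of-ratios scaling Tek, Cdh5 and Pecam1 overlapped. Cdh5, VE-cadherin, averaged 43.6 ± 5.26 FPKM in AAV-FGF17 hearts and 56.0 ± 8.31 FPKM in control hearts. Pecam1, a junction protein, averaged 25.3 ± 3.68 and 32.02 ± 1.11 FPKM. The median endothelial change was -0.20 over 8 libraries. Without control libraries 2 and 3 it was -0.05, with 7 of 10 below the median gene and 3 above it. There Tek, Cdh5 and Pecam1 stood at -0.23, -0.19 and -0.30 and were lower without overlap, against 9.39% of tested genes. The markers Tie1 and Kdr stood at -0.02 and 0.07 there and overlapped. In smooth muscle markers all 8 lay below the median gene (7 of 8 without control libraries 2 and 3), and their sum ran from 333 to 429 FPKM in AAV-FGF17 hearts and from 411 to 957 FPKM in control hearts. Most of that sum was Des, desmin, which heart muscle also expresses, at 256.5 ± 35.3 FPKM in AAV-FGF17 hearts and 377 ± 216 FPKM in control hearts. Its log2 change relative to the median gene was -0.29, and 0.17 without control libraries 2 and 3. Acta2, smooth muscle actin, averaged 74.0 ± 18.9 FPKM in AAV-FGF17 hearts and 106 ± 15.6 FPKM in control hearts. Epicardial and mesothelial markers summed to 8.72 to 18.7 FPKM in AAV-FGF17 hearts and 22.3 to 26.9 FPKM in control hearts, with no overlap, and 6 of 7 tested lay below the median gene. White adipocyte markers summed to 51.5 to 209 FPKM and 147 to 354 FPKM, with 7 of 7 tested below it. Without control libraries 2 and 3 the epicardial median went from -0.34 to -0.60, and the adipocyte median stayed at -0.89. At an unadjusted limma p under 0.05, 5 smooth muscle, 4 epicardial and 6 adipocyte markers were lower, against 7.98% of tested genes. So were 3 endothelial and 1 cardiomyocyte marker, while 2 fibroblast markers were higher, against 1.36%, and 0 macrophage markers counted either way. Cardiomyocyte markers summed to 12059 to 13067 FPKM and 11947 to 25595 FPKM (8 of 9 below, but 7 of 9 above without control libraries 2 and 3), fibroblast markers to 458 to 546 FPKM and 459 to 784 FPKM (5 of 8 above), and macrophage markers to 92.7 to 158 FPKM and 112 to 150 FPKM (6 of 8 above). Most of the fibroblast sum was Gsn, at 276 ± 27.3 FPKM in AAV-FGF17 hearts and 352 ± 157 FPKM in control hearts. Dcn was the 1 fibroblast marker higher without overlap, against 0.998% of tested genes, at 107 ± 7.75 and 80.3 ± 12.2 FPKM (limma adjusted p = 0.495). Its log2 change relative to the median gene was 0.54, and 0.25 without control libraries 2 and 3. The groups of Dcn did not overlap there or after median-of-ratios scaling. In none of these marker lists was a marker at 0 in every library. The part of these markers in the values of Pdgfa, Apln, Pdgfrb and Tek was not tested.

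Other ligands of the same families and of vessel growth did not pass the test. Of 13 listed, 8 were in the table and 7 were tested, all 7 above the median gene (median 0.06), of which 2 lay below it without control libraries 2 and 3. None had a limma p under 0.05 before adjustment. Cxcl12, a chemokine of stromal and endothelial cells, was the most abundant at 16.2 ± 0.831 FPKM in AAV-FGF17 hearts and 16.2 ± 1.97 FPKM in control hearts. Pdgfd, a ligand of Pdgfrb, averaged 4.08 ± 1.168 and 4.41 ± 0.460 FPKM, and Efnb2, a membrane ligand of arterial endothelium, 4.05 ± 0.577 and 4.34 ± 0.479 FPKM. Pgf, placental growth factor, averaged 2.65 ± 0.833 FPKM in AAV-FGF17 hearts and 2.49 ± 0.595 FPKM in control hearts. Angpt2, the context-dependent antagonist of Angpt1, averaged 1.28 ± 0.484 and 1.34 ± 0.197 FPKM, and Vegfd, a relative of Vegfc, 1.26 ± 0.257 and 1.40 ± 0.234 FPKM. Ang, angiogenin, averaged 2.59 ± 0.710 and 1.95 ± 0.436 FPKM, with a log2 change relative to the median gene of 0.39 ± 0.17 (SE; limma adjusted p = 0.505), or 0.47 without control libraries 2 and 3. Ang belongs to a family of related genes in the mouse. Reads shared among them were not examined, so its value is uncertain.

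Genes that control HIF proteins were read through 14 tested members of a list of partners and regulators, of which 10 lay above and 4 below the median gene (median 0.12, or 0.01 without control libraries 2 and 3). Egln1, the main HIF prolyl hydroxylase, averaged 100.1 ± 1.86 FPKM in AAV-FGF17 hearts and 103 ± 4.55 FPKM in control hearts. Elob, a subunit of the ligase that degrades HIF, averaged 78.3 ± 8.39 and 78.4 ± 6.11 FPKM. Hif1an, the asparaginyl hydroxylase of HIF, did not overlap between the groups, at 5.65 ± 0.423 FPKM in AAV-FGF17 hearts and 7.87 ± 1.99 FPKM in control hearts (exact permutation p = 0.0286, n = 4 each; limma adjusted p = 0.495). Its log2 change relative to the median gene was -0.27 ± 0.16 (SE), and -0.11 without control libraries 2 and 3, and its groups overlapped after median-of-ratios scaling. Of all tested genes, 4.64% were lower without overlap. Egln2, another prolyl hydroxylase, averaged 9.47 ± 1.08 and 15.5 ± 8.25 FPKM, where control libraries 2 and 3 averaged 21.2 FPKM and control libraries 1 and 4 averaged 9.79 FPKM. Vhl, which recognises hydroxylated HIF, averaged 1.43 ± 0.490 and 1.90 ± 0.161 FPKM, and Cited4, an inhibitor of the HIF coactivators, 3.53 ± 0.978 and 4.76 ± 1.87 FPKM.

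HIF target genes stood on both sides of the median gene. Of 28 tested targets, 16 stood higher than the median gene and 12 lower. Their changes ran from -0.66 to 0.67 with a median of 0.06, and 0.02 without control libraries 2 and 3, against 0 over all tested genes. No target had a limma adjusted p under 0.05. At an unadjusted limma p under 0.05 there were 1 higher and 1 lower, against 1.36% of tested genes higher and 7.98% lower. In 2 targets the AAV-FGF17 hearts lay below all controls, against 4.64% of tested genes. They lay above all controls in 0 targets, against 0.998%. Tfrc, the transferrin receptor, was lower without overlap, at 8.00 ± 1.63 FPKM in AAV-FGF17 hearts and 11.99 ± 0.943 FPKM in control hearts (exact permutation p = 0.0286, n = 4 each). Its log2 change relative to the median gene was -0.43 ± 0.15 (SE; limma adjusted p = 0.495), and -0.45 without control libraries 2 and 3. Ddit4, an inhibitor of mTORC1 that also responds to glucocorticoids, averaged 22.1 ± 5.79 and 14.98 ± 4.14 FPKM. Aldoa and Hk2, glycolytic enzymes, averaged 225 ± 6.73 and 60.9 ± 4.14 FPKM in AAV-FGF17 hearts and 285 ± 99.6 and 75.5 ± 13.6 FPKM in control hearts. Bnip3, a mitophagy receptor, averaged 94.9 ± 15.2 FPKM in AAV-FGF17 hearts and 82.2 ± 14.2 FPKM in control hearts. Pfkfb3, a regulator of glycolysis, averaged 1.09 ± 1.149 and 2.44 ± 1.168 FPKM.

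**Figure D5:**
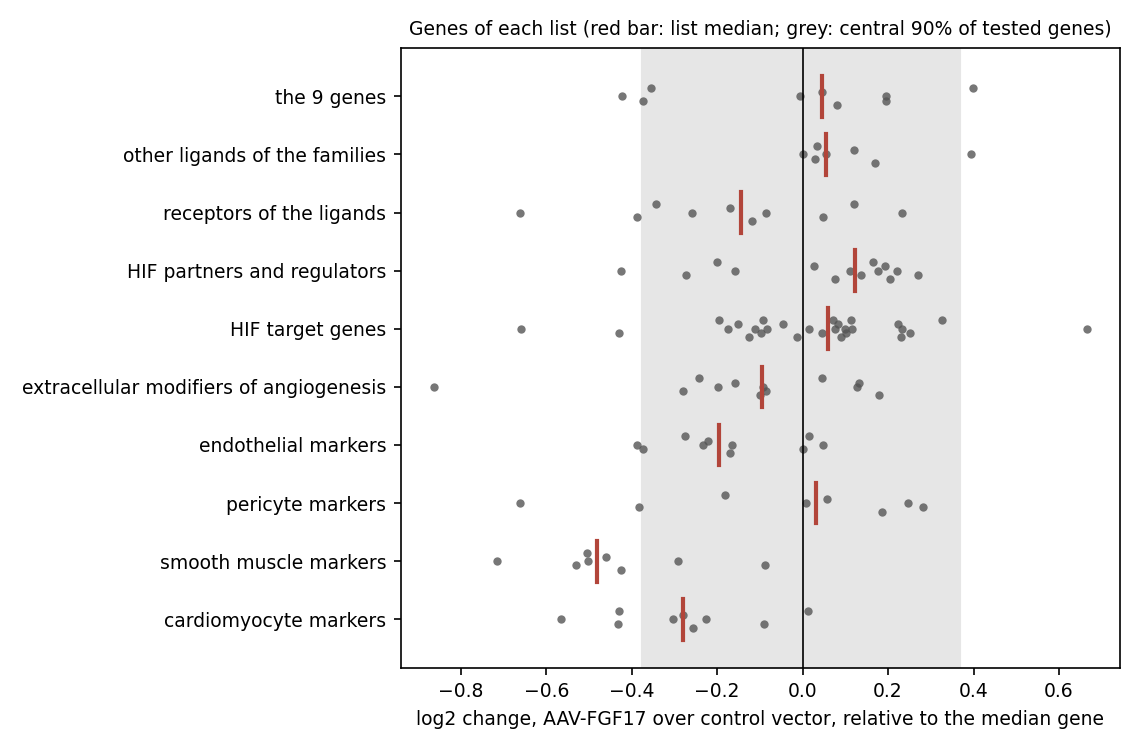
Log2 change of each tested gene, AAV-FGF17 over control vector and relative to the median gene (x axis), by gene list (y axis); each point is a gene, red bars are list medians, and grey spans the central 90% of tested genes. The medians are 0.05 for the 9 genes, -0.14 for the receptors and 0.06 for the HIF targets.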

How the data were processed

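Per the file headers, the deposited values are FPKM, which the authors made for each gene in each library. HISAT2 2.1.0, StringTie 1.3.3, FastQC 0.11.7, cutadapt 1.17 and the GRCm38 genome are listed in the submitters' processing notes, with no order or settings. In every listed gene the larger group mean was at least 0.501 FPKM. The table has 1 empty line, left out here, and 0 columns of per-sample values were unassigned. Columns were matched to samples by name. The labels do not say that samples are separate animals, and a p-value then reflects only how much these 8 samples vary.

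Genes averaging 1 FPKM or more were transformed to log2(FPKM + 1), a scale that understates changes of low genes. They were fitted in limma 3.58.1 (R 4.3.3) by group alone, with an intensity trend in the prior variance and Benjamini-Hochberg adjustment over 10025 genes. P-values test the change as fitted against 0. SEs are those of the fitted change. For single genes, an exact permutation test, two-sided, ran over all 70 arrangements of the FPKM values. The fit was tested on simulated data. Coordinates are those of the files; transcripts, overlapping genes and lengths came from GENCODE M21 and promoter windows from RefSeq GRCm38.p6.

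Members and lists were chosen with earlier results of these data known. Named were all 9 members, Fgf17, all tested receptors and other ligands, and from each other pathway list the 4 genes of smallest p and the 2 of highest mean. From each marker list the 2 of highest mean were taken, of which those of cell types used here are given. For the 3 members of widest range, the 3 genes of nearest profile were named, predicted gene models left out. The comparison of long and short genes was added after seeing the data. Alternatives were another pseudocount, no filter, 2 rescalings, array weights, a replicate block, control libraries 1 and 4 averaged, and leaving out libraries.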

Additional observations from a re-analysis of the deposited data

Results flagged for a closer look

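Of 122 groups of 4 hearts, from 61 genes, 6 had a heart far from the other 3, where chance gives about 1 in 20. Among the 9 genes this was Vegfb in control library 3, at 82.5 FPKM, the library with the lowest mitochondrial share. The flag rests on FPKM as deposited. Relative to its mean and to the library's median gene, Vegfb stood at 0.09 there and at 0.14 in AAV-FGF17 library 4 on the log2 scale. Vhl stood at 1.66 FPKM in control library 1, below the other controls, and Ddit4 at 8.81 FPKM in control library 2. Pfkfb3 stood at 2.80 FPKM in AAV-FGF17 library 3, above the other AAV-FGF17 hearts. The adipocyte gene Cfd stood at 95.7 FPKM in AAV-FGF17 library 3 and at 212 FPKM in control library 3.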

How the results depend on the processing

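In 0 of 16 alternatives did any of the 9 genes reach a limma adjusted p under 0.05. Vegfa, Vegfb, Vegfc, Angpt1, Pdgfa and Apln kept their direction relative to the median gene in all 16, with ranges of 0.09 to 0.27, 0.04 to 0.15, 0.14 to 0.54, -0.68 to -0.12, -0.46 to -0.29 and -0.51 to -0.18. Their adjusted p-values ran from 0.289 to 0.996. Pdgfb, at -0.0053, turned to 0.0036 with a pseudocount of 0.1, 0.0045 with median-of-ratios scaling, 0.0077 when rescaled without mitochondrial genes, 0.10 with array weights and 0.20 without control libraries 2 and 3. Leaving out single libraries gave it -0.14 to 0.11. Hif1a ran from -0.0298 to 0.13 when single libraries were left out, and Epas1 turned to -0.0615 without control libraries 2 and 3. Without control libraries 2 and 3, 5 genes of the whole table passed as higher and 1 as lower, and with array weights 4 and 1. Leaving out single libraries gave 0 to 1 higher and 0 to 3 lower. Genes near 0 also turned: Vegfd to -0.0056 with the pseudocount, -0.0057 with median-of-ratios scaling and -0.0137 without mitochondrial genes, and Pdgfd to -0.0043, -0.0003 and -0.0027 in the same order, -0.0023 with no filter, -0.17 with array weights and -0.15 without control libraries 2 and 3. Efnb2 turned to -0.0056 with array weights and -0.0049 without control libraries 2 and 3, Aldoa to 0.11 and 0.18, Ctgf to -0.24 and -0.39, and Cited4 to 0.0133 without those libraries. When single libraries were left out, Vegfd ran from -0.0048 to 0.0811, Angpt2 from -0.0421 to 0.1642, Pdgfd from -0.1298 to 0.1025, Efnb2 from -0.0305 to 0.0765, Kdr from -0.0381 to 0.1565 and Ctgf from -0.062 to 0.3164. The cause was not tested.

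The labels number the hearts 1 to 4 in both groups. Same-numbered hearts did not deviate together, with correlations of -0.11 to 0.02, and 0 of 8 libraries correlated best with their own number. With the replicate block, 0 genes passed in either direction, and the lowest adjusted p of the 9 genes was 0.509. With control libraries 1 and 4 averaged, 0 genes passed either, and the lowest limma adjusted p of the 9 genes was 0.304. Depth is unknown, and 4 hearts a group limit the precision.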

Other observations

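Extracellular proteins that restrain or remodel vessel growth were read through a list of 15 genes, of which 12 were tested. Of these, 4 stood higher than the median gene and 8 lower. Their median was -0.10, and -0.19 without control libraries 2 and 3. None had a limma adjusted p under 0.05. In 2 of them the AAV-FGF17 hearts lay below all controls, against 4.64% of tested genes. Col18a1, whose collagen releases endostatin, was lower without overlap, at 1.48 ± 0.497 FPKM in AAV-FGF17 hearts and 4.12 ± 2.13 FPKM in control hearts (exact permutation p = 0.0286, n = 4 each). Its log2 change relative to the median gene was -0.86 ± 0.27 (SE), or -0.52 without control libraries 2 and 3. Thbs2, a thrombospondin that inhibits angiogenesis, was also lower without overlap, at 5.36 ± 0.730 and 6.67 ± 0.202 FPKM, but overlapped after median-of-ratios scaling. Vash1, the endothelial inhibitor vasohibin, averaged 1.10 ± 0.280 FPKM in AAV-FGF17 hearts and 1.77 ± 0.372 FPKM in control hearts, and Mmp14, a membrane metalloproteinase, 1.31 ± 0.373 and 1.90 ± 0.626 FPKM. Sparc, a matricellular protein, averaged 60.2 ± 12.7 and 78.4 ± 20.4 FPKM, and Ctgf, connective tissue growth factor, 42.8 ± 10.8 and 43.3 ± 14.7 FPKM.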
